A study of Mus musculus with 32 samples.

Results

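Microglia, the resident macrophages of the brain, were examined in a single-cell RNA survey of the embryonic mouse dorsal telencephalon, the tissue that forms the cerebral cortex. Members were chosen by their own RNA counts. A barcode had to hold at least 1000 UMIs and 500 genes, where a UMI marks 1 captured RNA molecule. It also had to hold at least 3 UMIs of C1qa, C1qb and C1qc together, and at least 1 UMI of Csf1r and Cx3cr1 together. Of 143705 barcodes that passed the first filter, out of 145082 deposited, 269 met the rule, which is 0.187%. They are called C1q+ cells here, because at the earliest stage many cells that met the rule also carried macrophage genes, as described further on.

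The libraries came from C57BL/6J embryos of 4 stages, from E12.5 (embryonic day 12.5) over E14.5 to E16.0 and finally E17.5, that carried either 2 intact copies of Chd8 (WT) or 1 (Chd8+/-, called het). Chd8 encodes a chromatin remodelling protein. Each of the 8 groups of a stage and a genotype had 4 libraries, 32 in all, each from a single embryo. Littermates of one sex, WT and het, were matched as pairs with a common name (M1, M2, F1 or F2), and the medial wall of the telencephalon was removed during dissection.

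Microglia arise from macrophage precursors of the yolk sac that enter the brain early in development, and they depend on the receptor encoded by Csf1r for survival. C1qa, C1qb and C1qc encode the chains of C1q, the recognition protein of the classical complement pathway, and Cx3cr1 encodes the receptor for fractalkine. Border-associated macrophages, which line the meninges and vessels and the choroid plexus, share that origin and express C1q and Csf1r as well. They are usually told apart by genes such as Mrc1, Pf4 and Lyve1, whereas P2ry12, Sall1 and Tmem119 are characteristic of parenchymal microglia.

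Many myeloid promoters bind PU.1, the factor encoded by Spi1, whose core site is often written GAGGAA. These letters were searched on both strands in the 250 bases before the RefSeq gene start (build GRCm38.p6), where they occurred in 25.9% of 27025 promoters. They occurred in 9 of 14 promoters matched from the list of microglial markers, in 6 of 12 of the homeostatic list and in 7 of 12 of the macrophage list, 3 lists described with the results. The windows below are shown because they belong to genes that chose the cells (C1qb, C1qc), that rose with stage (Itgam, Fcrls) or that marked part of the cells at E12.5 (Mrc1, F13a1). Each is written 5′ to 3′ on the strand of its gene, with the motif, or its complement TTCCTC, in capitals.
C1qb, chr4:136886213-136886242, minus strand: gcagcaggatggGAGGAAcagaggggtgat
C1qc, chr4:136893090-136893119, minus strand: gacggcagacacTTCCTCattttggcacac
Itgam, chr7:128062544-128062573, plus strand: tgttttctcccgGAGGAAggctacagaggg
Fcrls, chr3:87263651-87263680, minus strand: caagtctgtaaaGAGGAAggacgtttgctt
Mrc1, chr2:14229367-14229396, plus strand: aaaagggacagcTTCCTCtgtcctcctttt
F13a1, chr13:37050293-37050322, minus strand: ttgaagctacagGAGGAAgagaggataaga
The letters stood in promoters of genes that rose and of genes that fell. A match describes the sequence and does not show that PU.1 binds there.

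Most C1q+ cells lay far above the thresholds, but the receptor threshold ran through barcodes that were alike. The median C1q+ cell held 7020 UMIs, of which 70 came from the C1q genes and 13 from Csf1r or Cx3cr1. Near the threshold, 4 members had 3 to 6 C1q UMIs and 21 had a single receptor UMI. The 4 held a median of 9.38 UMIs of a list of 18 microglial markers per 10000 UMIs, against 181 in all members, and neuronal and progenitor RNA at 49.9% of its level in the other barcodes. Just outside, 1 barcode had 2 C1q UMIs with a receptor UMI, 3 had 1 C1q UMI with a receptor UMI, and 25 had 3 or more C1q UMIs without a receptor UMI. The last group had a median of 2585 UMIs and of 29 UMIs from these markers. Per 10000 UMIs it held a median of 102 marker UMIs, and the 21 members with a single receptor UMI also held 102. Of 131914 distinct barcode sequences, 12378 occurred in more than 1 library, but none was a member in more than 1.

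The label was checked with 18 microglial markers that the rule did not use. Levels are given as CPM, the UMIs of a gene per 1000000 UMIs of all C1q+ cells of a library, and only 22 libraries with at least 5 such cells were used for them. The 18 markers together lay between 7131 and 28744 CPM in the C1q+ cells and between 26.9 and 67.5 CPM in all other barcodes of the same libraries. Examples are Tyrobp, an adaptor of TREM2 (2577 against 0.945 CPM over all cells), Ctss, a lysosomal protease (1832 against 0.360 CPM), and Fcrls, an Fc receptor-like gene of microglia (1450 against 0.268 CPM). Ccl4 and Ccl3, which encode chemokines, stood at 1773 against 0.279 and 1290 against 0.422 CPM. These values describe cells that the rule picked for related genes and are not tested.

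RNA of other cell types was low but not absent. A list of 18 neuronal and progenitor genes reached 3.52% of its level in the other barcodes in the median C1q+ cell, 16 cells exceeded 25%, and 2 cells reached or exceeded the level of the other barcodes. No member had more than 10% mitochondrial UMIs. Doublets were not called. A single member in E17.5 WT M1, with 38485 UMIs, held 375 UMIs of endothelial genes, 194 of them from Cldn5, and only 45 of the microglial markers. This member was kept in the main sums, where the C1q+ cells of its library held 129807 UMIs in all. The levels of that library are thus in part those of this barcode. Of the B cell genes, Cd79a and Ms4a1 were at 0 while Cd79b stood at 68.3 CPM, against 0.0805 CPM in the other barcodes, and the T cell genes Cd3e and Cd3g were at 0.

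C1q+ cells made up a small share of the barcodes at each stage, and a larger one from E16.0 onward. At E12.5 the share of passing barcodes was 0.126% ± 0.0548 in WT and 0.108% ± 0.0773 in het (SD, n = 4 each). At E14.5 it was 0.101% ± 0.0748 and 0.0683% ± 0.0305. At E16.0 it was 0.334% ± 0.0938 and 0.220% ± 0.104, and at E17.5 it was 0.333% ± 0.163 and 0.212% ± 0.0572. The libraries overlapped between genotypes at all 4 stages, whereas most libraries at E16.0 and E17.5 stood above most at E12.5 and E14.5.

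Between E14.5 and E16.0 the share rose by 0.192 percentage points, from 0.0847% to 0.277% over 8 libraries each (permutation test on libraries, two-sided, p = 0.000932, adjusted over 4 steps 0.00373). From E12.5 to E17.5 it rose by 0.155 points (permutation p = 0.00264, adjusted 0.00528). The change from E12.5 to E14.5 was -0.0326 points (permutation p = 0.284), and that from E16.0 to E17.5 was -0.0044 points (permutation p = 0.943). Both of these changes turned positive without the cells rich in macrophage genes that are described further on. A share depends on the number of all other cells recovered as well, and counts of cells per tissue were not measured.

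**Figure D1:**
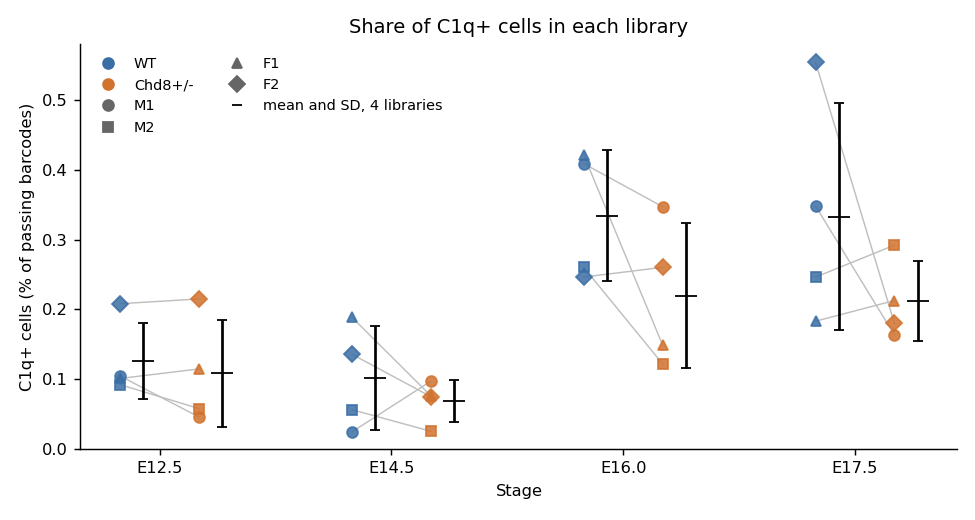
C1q+ cells as a percentage of passing barcodes in each of 32 libraries, by stage and genotype, with the mean and SD of 4 libraries. Both genotypes lie higher at E16.0 and E17.5 than at the earlier stages, and the het means lie below the WT means at all 4 stages while the libraries overlap.

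Het embryos had lower mean shares at all 4 stages, though no stage on its own passed a test and the direction at E12.5 rested on single libraries. The difference was -0.0181 points at E12.5 (exact permutation p = 0.657), -0.0329 at E14.5 (exact p = 0.486), -0.115 at E16.0 (exact p = 0.171) and -0.121 at E17.5 (exact p = 0.2). Adjusted over the 4 stages, these p-values were 0.657, 0.648, 0.4 and 0.4, and the smallest p that 4 against 4 libraries can give is 0.0286. At E12.5 the difference turned to 0.00914 without WT F2, the library of that group with the highest share (exact permutation p = 0.971), to 0.00275 without het M1 and to 0.0127 without the cells rich in macrophage genes that are described further on (exact permutation p = 0.8). Averaged over stages, the share was 0.0717 points lower in het, a difference of -0.0717 (permutation of genotype within stages, two-sided, p = 0.0274). It was lower in 10 of 16 pairs (sign-flip permutation over the pairs, p = 0.0231).

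That average rested on few cells and on single libraries. The WT libraries at E16.0 held 8, 13, 20 and 25 C1q+ cells and the het libraries 9, 9, 13 and 17. Without het M2 of E16.0 the difference was -0.0635 points (permutation p = 0.0501), and without WT F2 of E17.5, the library with the highest share (0.555%), it was -0.0532 points (permutation p = 0.0538). With at least 6 C1q UMIs and 2 receptor UMIs required, it was -0.0561 points (permutation p = 0.0916), and with each cell first thinned to 2000 UMIs -0.0606 points (permutation p = 0.0602).

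The genes that chose the cells are described here without a test. C1qb stood at 2963, 2203 and 2428 CPM in the WT and at 2000 and 2430 CPM in the het libraries of E12.5, and at 4155 and 4449 CPM in the WT libraries of E14.5. It ran from 3894 through a median of 4263 to 5843 CPM at E16.0 and from 2874 through 4527 to 6778 CPM at E17.5. Csf1r stood between 302 and 515 CPM at E12.5, at 998 and 696 CPM at E14.5, and between 963 and 1728 CPM at E16.0. At E17.5 Csf1r ran from 991 to 1341 CPM. Csf1r was thus lower in every library of E12.5 than in every later library, and C1qb than in every library of E14.5 and E16.0 but not of E17.5. Cx3cr1 showed no such order, with 580, 1101, 623, 604 and 700 CPM at E12.5, 411 to 1086 CPM at E16.0 and 448 to 1771 CPM at E17.5.

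P2ry12, Sparc and other genes of mature microglia were higher at E17.5 than at E12.5. From E16.0 to E17.5 no further rise was called for them, with P2ry12 at -0.04, Sparc at 0.28 and Tmem119 at -0.55 on the log2 scale (edgeR adjusted p = 0.972, 0.769 and 0.243). Gene tests used edgeR's quasi-likelihood test on the summed counts of the C1q+ cells of each library, with Benjamini-Hochberg adjustment over 2046 genes and a threshold of 0.05. Between E12.5 (5 libraries) and E17.5 (7 libraries) it called 458 genes, 22.4% of those tested, with 269 higher at E17.5 (13.1%) and 189 lower (9.24%). Of 621 genes at least 2 times above their level in the other barcodes, 169 were higher (27.2%) and 41 lower (6.6%). Each count over a list below stands beside these shares. A gene entered the test when at least 2 libraries, of whatever stage, reached 132.1 CPM, the level of 10 counts in the median library. Genes that did so at one end of the interval alone were more likely to differ, so counts over a list are given here to account for its members, with the number that reached this level in 2 libraries of both stages. Among the genes described below, Sparc, Siglech, Tmem119, Crybb1, Sall1, Gpr34 and Olfml3 did so at E17.5 and not at E12.5. Pf4, Mrc1, Dab2, F13a1, Lyve1 and Ms4a7 did the reverse. For all of these, values by library, where given, carry the description rather than the tests. Calls fell to 229 without het F2 of E12.5 and to 298 without het F1, the only het libraries of that stage in the test. Cells were also deeper at E12.5, with a median of 10784 UMIs against 5761 at E17.5, and after thinning each cell to 1000 UMIs 30 genes were called.

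Of 16 homeostatic genes, which mark microglia at rest, 15 could be tested and 14 rose, beside 27.2% of the genes at least 2 times above the other barcodes. Only 6 of the 15 reached the level of the filter in both stages, of which 5 rose, and 8 reached it at E17.5 alone. P2ry12 encodes a purinergic receptor that guides microglial processes, and lies on chromosome 3 from 59216272 to 59262871 (minus strand, GRCm38), where it overlaps Med12l on the other strand. It stood at 258, 211, 234, 75.5 and 273 CPM in the libraries of E12.5 and at 944 and 735 CPM at E14.5. It ran from 913 through 1666 to 2237 CPM at E16.0 and from 759 through 1125 to 2105 CPM at E17.5. Among libraries with 5 or more cells, none of E12.5 reached any of a later stage. The log2 fold change from E12.5 to E17.5 was 2.86 (SE 0.277, edgeR adjusted p = 7.22e-08).

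Sparc, a matricellular protein of resting microglia, went from 16.1, 89, 117, 113 and 73.6 CPM at E12.5 to between 612 and 2334 CPM at E17.5 (log2 fold change 4.35, SE 0.490). As for P2ry12, the ranges of E12.5 and E17.5 did not overlap. Siglech, a sialic acid-binding lectin, changed by 3.17 (SE 0.433), and Tmem119, a membrane protein of mature microglia, by 2.34 (SE 0.328). Tgfbr1, a receptor for TGF-beta, was the member of the list that did not pass (0.58, edgeR adjusted p = 0.0864). The remaining homeostatic gene, Csf3r, had too few counts to be tested.

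A gene outside the homeostatic list that rose as far was Crybb1, which encodes a beta-crystallin and is found in early microglia. It stood at 48.3, 89, 101, 75.5 and 118 CPM at E12.5 and at 459 and 158 CPM at E14.5. At E16.0 it ran from 409 through 847 to 3493 CPM, and at E17.5 from 1012 through 2125 to 2900 CPM. The log2 fold change was 4.63 (SE 0.482, edgeR adjusted p = 2.63e-06). Since Crybb1 reached the level of the filter at E17.5 and not at E12.5, these values by library carry the description rather than the test. Here too no library of E12.5 reached those of later stages. Cd37, a leukocyte tetraspanin, changed by 3.03 (SE 0.438), and Sgk1, a serum-responsive kinase, by 2.69 on the log2 scale. Whether these genes reached the level of the filter at both stages is not given here, so nothing more is read from their tests.

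**Figure D2:**
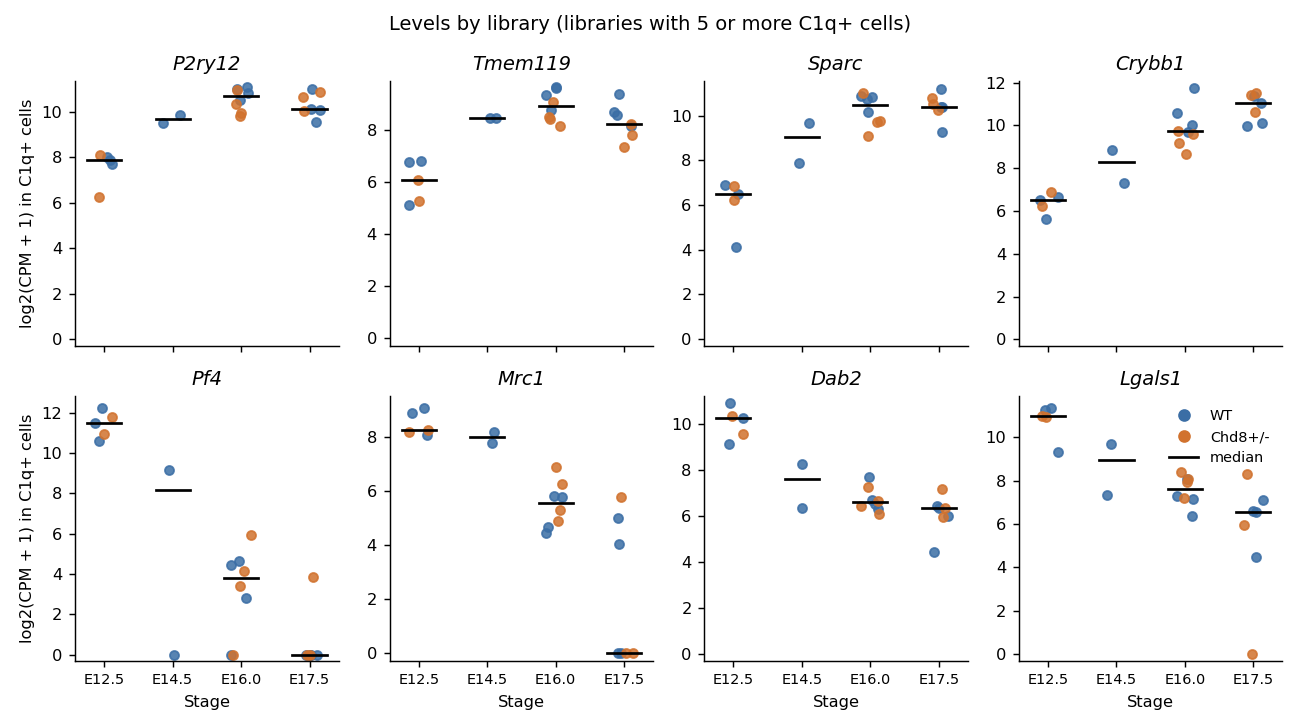
Levels of single genes in the C1q+ cells of each library, as log2(CPM + 1), by stage, for the 22 libraries with 5 or more such cells; lines mark medians. Microglial genes such as P2ry12 and Tmem119 step up between E12.5 and the later stages, while Pf4 and other macrophage genes step down.

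Of the 18 microglial markers, all were tested, 13 rose from E12.5 to E17.5 and none fell. Among the genes at least 2 times above the other barcodes, 27.2% rose and 6.6% fell. In both stages 15 reached the level of the filter, of which 10 rose. Trem2, a lipid-sensing receptor, changed by 2.03 (SE 0.260) and Ctss by 1.92 (SE 0.203). Tyrobp, its adaptor, changed by 0.80 (SE 0.189). Aif1, an actin-binding protein found in macrophages in general, did not pass (0.02, edgeR adjusted p = 0.963), with E12.5 libraries between 596 and 1160 CPM and E17.5 libraries between 523 and 1186 CPM.

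Among 14 transcription factors of the lineage, 11 were tested. Of the 6 that reached the level of the filter in both stages, Mef2c (1.12) and Irf8, a factor of myeloid development (1.16), rose, and 4 more genes rose after reaching it at E17.5 alone. Sall1, which maintains microglial identity, is one of the 4 and changed by 2.05 (SE 0.444, edgeR adjusted p = 0.00162), from between 0 and 51.5 CPM at E12.5 to between 40.3 and 253 CPM at E17.5. Among the 4 were also Mef2a (2.21) and Cebpa (2.09). Spi1, which encodes PU.1, was measured at 0.46 (edgeR adjusted p = 0.235) and Runx1 at 0.90 (edgeR adjusted p = 0.333). Neither of these early lineage factors passed the test.

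Pf4, Mrc1, Dab2 and other macrophage genes were far lower at E17.5. Of 14 such genes 10 were tested, and 6 of these reached the level of the filter at E12.5 alone, so that no count of falls is read for this list. The 3 that reached it in both stages were Stab1, a scavenger receptor (-1.09, edgeR adjusted p = 0.0493), Fcgrt, the neonatal Fc receptor (-1.17, edgeR adjusted p = 0.00391), and Lyz2, lysozyme of myeloid cells, which did not pass (0.29, edgeR adjusted p = 0.773). Pf4, a platelet chemokine also made by tissue macrophages (chromosome 5, 90772435 to 90773383), stood at 4750, 1569, 2895, 3472 and 1996 CPM at E12.5 and at 0 and 578 CPM at E14.5. It did not exceed 60.6 CPM at E16.0 and 13.3 CPM at E17.5. Among libraries with 5 or more cells, every one of E12.5 lay above every later one. The het libraries of E14.5 had fewer cells and are not in that comparison. At E14.5, 3 cells with macrophage genes, 2 of them het, held 193 Pf4 UMIs, or 9913 CPM within these cells. A fall of Pf4 by E14.5 is therefore not read for het embryos. Over all cells it had 1371 UMIs at E12.5 and 1 at E17.5, a ratio of 1184 whose counting interval ran from 212 to 46813.

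F13a1, a coagulation factor subunit, Lyve1, a hyaluronan receptor, and Ms4a7, a membrane protein of border-associated macrophages, had no UMI at E17.5. Against a floor of 3 UMIs over the stage, they were at least 42.9-fold, 40.0-fold and 40.6-fold higher at E12.5. Mrc1, the mannose receptor, went from 531, 267, 475, 302 and 287 CPM at E12.5 to between 0 and 53.2 CPM at E17.5 (log2 fold change -3.89, SE 0.457, edgeR adjusted p = 8.29e-07). Dab2, an endocytic adaptor, went from 1884, 556, 1214, 1283 and 758 CPM to between 20.6 and 141 CPM (log2 fold change -3.57, SE 0.366). Since Mrc1 and Dab2 reached the level of the filter at E12.5 alone, their values by library carry the description rather than their tests. The ranges of E12.5 and E17.5 did not overlap for either gene. Cd163, a haemoglobin scavenger receptor, was at 0 throughout.

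The cells of E12.5 were not all alike. To compare cells at equal depth, each was thinned to 2000 UMIs, and UMIs of Mrc1, Pf4, F13a1, Lyve1, Cd163 and Ms4a7 were summed. At E12.5, 29 of 50 cells (58.0%, exact interval 43.2% to 71.8%) had at least 2 such UMIs, with up to 31 in a cell, while 17 had none. At E14.5, 3 of 27 did, with 28, 31 and 36 UMIs, while 22 had none. At E16.0, 8 of 110 did (7.27%), with at most 6 UMIs in a cell, and at E17.5 none of 76 did (exact upper limit 4.74%). Without thinning the shares were 72.0%, 29.6%, 16.7% and 2.56%. Over libraries the share fell by 60.0 points from E12.5 to E17.5 (difference -60.0, exact permutation p = 0.00253, the smallest that 5 against 7 libraries can give, adjusted 0.00505).

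**Figure D3:**
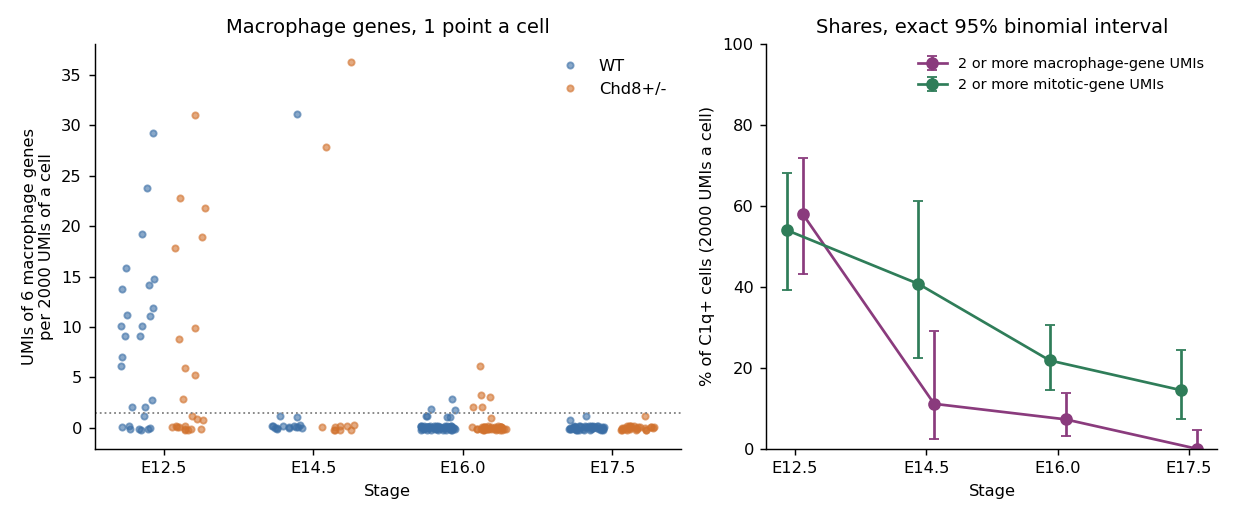
Left, UMIs of 6 macrophage genes in each C1q+ cell thinned to 2000 UMIs, by stage and genotype, with points slightly offset for display; right, shares of cells with at least 2 UMIs of macrophage or of cell cycle genes, with exact 95% binomial intervals. At E12.5 the counts of macrophage genes spread from 0 to 31 without a gap at 2 UMIs, at E14.5 3 cells stand apart, and both shares fall with stage.

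The 29 and the remaining 21 cells of E12.5 differed in genes that did not define them, given here as a description. P2ry12 stood at 86.7 CPM in the cells with macrophage genes and at 495 CPM in those without, and Sall1 at 2.99 against 83.1 CPM. After thinning, 4 of 29 and 13 of 21 cells held a P2ry12 UMI, and 28 of 29 and 3 of 21 held a Dab2 UMI. Cx3cr1 was lower in the cells with macrophage genes (374 against 1069 CPM), while C1qb stood at 2863 against 2210 CPM and Csf1r at 508 against 480 CPM. In all 5 libraries of E12.5 with 5 or more C1q+ cells, P2ry12 was lower in the cells with macrophage genes. By the markers set out above, the label of microglia therefore holds for the later stages better than for E12.5, where 29 of 50 cells carried the genes of border-associated macrophages. The lineage of these cells and their place in the tissue were not measured.

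Among the cells without macrophage genes, P2ry12 and Sparc were lower at E12.5 than later, while Cx3cr1 and Sall1 showed no such order. P2ry12 stood at 495 CPM in these cells at E12.5, 832 CPM at E14.5, 1745 CPM at E16.0 and 1419 CPM at E17.5. Sparc stood at 174, 556, 1566 and 1567 CPM in the same order. Cx3cr1 stood at 1069, 970, 805 and 1176 CPM and Sall1 at 83.1, 64.7, 123 and 128 CPM. The test was repeated, in an analysis added after the data had been seen, without the 52 cells that held at least 3 unthinned macrophage-gene UMIs and with every library that kept a cell. At E12.5 this left 17 cells in 3 WT and 2 het libraries, against 77 cells at E17.5. The cut was made on unthinned cells, which were deeper at E12.5. The test called 144 of 1278 genes between E12.5 and E17.5, of which 110 were higher at E17.5 and 34 lower. P2ry12 (log2 fold change 1.86), Sparc (3.15) and Crybb1 (4.30) were still called, and of the 14 homeostatic genes that rose above 10 were. Those 14 had been picked by the first test, which used nearly the same cells of E17.5 (77 of its 78 remained). In that test 8 of the list, Sparc among them, and Crybb1 had reached the level of the filter at E17.5 alone. The count of 10 is therefore a description and not separate support. Gpr34, a receptor of microglia (1.23, edgeR adjusted p = 0.0634), Cd53, a tetraspanin (0.61, edgeR adjusted p = 0.220), and the factor Cebpa (1.40, edgeR adjusted p = 0.0927) were not. Dab2, Pf4 and Mrc1 had too few counts left to test, and Stab1, Fcgrt, Hmox1 and Igfbp4 were no longer lower (1.11, 0.36, 0.57 and 0.19). With 5 cells a library required, E12.5 kept a single het library, which was set against the 3 het libraries of E17.5 and assumed to vary like the other groups. Crybb1 had a log2 fold change of 3.63 there, but nothing is read from 1 library.

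Genes of a list for lysosomes, lipid handling and the microglia of developing axon tracts moved in both directions. Of its 22 genes, 19 were tested, 9 rose and 4 fell from E12.5 to E17.5, beside 27.2% and 6.6% of the genes at least 2 times above the other barcodes. All 9 that rose and 2 of the 4 that fell reached the level of the filter in both stages. Among those that rose were the lysosomal proteases Ctsl (log2 fold change 3.58, SE 0.570), Ctsd (2.07, SE 0.383) and Ctsb (1.44, SE 0.390), the membrane protein Lamp1 (1.37) and the cholesterol carrier Npc2 (1.19). Those that fell and reached the level of the filter in both stages were Plin2, a lipid droplet protein (-0.73), and Lgals1, galectin-1 (-3.76, SE 0.531). Lpl, lipoprotein lipase (-2.21, SE 0.480, edgeR adjusted p = 0.00289), and Igf1, a growth factor (-1.57), reached it at E12.5 alone, so that nothing is read from their tests. Lgals1 stood at 2593, 645, 2436, 1963 and 2018 CPM at E12.5 and between 0 and 319 CPM at E17.5. It was also called without the macrophage-gene-rich cells (-2.97, edgeR adjusted p = 0.000875). Apoe, the main apolipoprotein of the brain, ranged widely in both stages and did not pass (0.44, edgeR adjusted p = 0.381).

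Of 18 chemokine and cytokine genes, 12 were tested, and 7 of these reached the level of the filter in both stages, of which only Ccl7 was called (-2.72, edgeR adjusted p = 0.0493). That call held in 9 of 32 alternatives, between which the log2 fold change ran from -5.59 to 1.05. Il1a, interleukin-1 alpha (2.71, SE 0.663), and Ccl6 (1.94) were called higher after reaching it at E17.5 alone, and Ccl24 lower after reaching it at E12.5 alone, with 124 UMIs at E12.5 against 3 at E17.5. Ccl3 and Ccl4 were abundant at both stages and did not pass, with Ccl4 between 679 and 1739 CPM at E12.5 and between 269 and 5877 CPM at E17.5. Of 19 sensing receptors, 6 were tested and the Fc receptor Fcgr3 (0.86) and the inhibitory lectin Cd33 (1.00) rose. Beside 27.2% of the genes at least 2 times above the other barcodes, nothing is read from that count. B2m (1.65, SE 0.264) and H2-D1 (1.07), parts of MHC class I, rose, while the class II genes H2-Aa and H2-Eb1 were at 0. Of 14 interferon-response genes 5 were tested and only Ifi27l2a changed (-3.30).

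Csf1, which encodes a ligand of CSF1R and reached the level of the filter at E17.5 alone, had a log2 fold change of 2.72 within the C1q+ cells (SE 0.935, edgeR adjusted p = 0.0375), with 0 to 44.2 CPM at E12.5 and 0 to 282 CPM at E17.5. The other barcodes held Csf1 at 2.17 ± 0.286 CPM in WT at E12.5 and 4.67 ± 0.954 CPM at E17.5 (SD, n = 4 each). There Il34, the second ligand, went from 0.111 ± 0.0644 to 1.28 ± 0.519 CPM.

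Cells with cell cycle RNA became a smaller share of all C1q+ cells, those with macrophage genes included. After thinning to 2000 UMIs, 54.0% of cells at E12.5 (27 of 50, exact interval 39.3% to 68.2%) had at least 2 UMIs of 10 cell cycle genes, against 40.7% at E14.5, 21.8% at E16.0 and 14.47% at E17.5 (11 of 76, exact interval 7.45% to 24.4%). Unthinned, these shares were 86.0%, 66.7%, 33.3% and 24.4%. Over libraries the fall from E12.5 to E17.5 was 44.9 points (difference -44.9, exact permutation p = 0.00253, again the smallest possible, adjusted 0.00505). Of 20 cell cycle genes, 14 were tested, and 7 of these reached the level of the filter at E12.5 alone, so that no count of falls is read for the whole list. Of the 5 that reached it in both stages, 3 fell, including the spindle regulator Birc5 (-1.89) and Hmgb2, a chromatin protein of dividing cells (-1.68). The kinase Cdk1, which reached it at E12.5 alone, was measured at -2.01 (SE 0.601, edgeR adjusted p = 0.0198). Over all libraries Birc5 stood at 172 CPM in C1q+ cells against 182 in the other barcodes, Hmgb2 at 406 against 926 and Cdk1 at 102 against 190. The part of RNA from other cells in these values was not tested. Mki67, also on the list, was held after thinning by 2 of 21 cells without macrophage genes at E12.5 and by 7 of 76 at E17.5. Without the macrophage-gene-rich cells and with 1 cell a library, none of Birc5, Hmgb2 and Cdk1 was called, with Cdk1 at -0.62 and Birc5 at -0.59. There Mki67 (1.58) and Top2a (0.45) were positive, also without a call, and the other listed cell cycle genes tested were negative. With 5 cells a library Cdk1 stood at -2.16 and Birc5 at -1.41, but E12.5 kept 1 het library there, so nothing is read from these values.

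**Figure D4:**
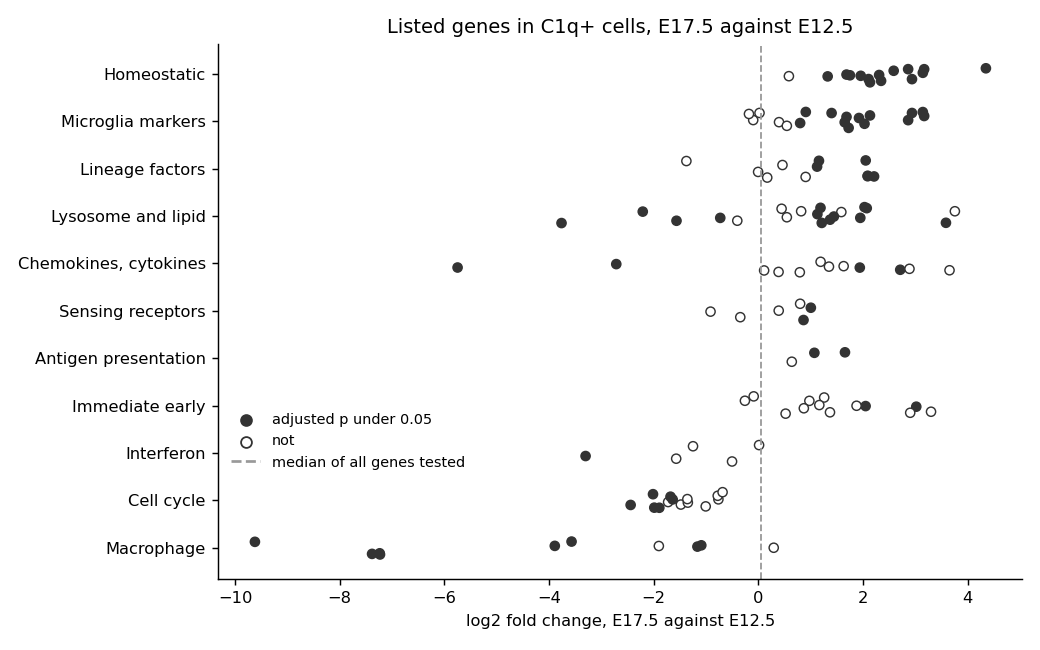
Log2 fold changes from E12.5 to E17.5 of the listed genes in C1q+ cells, 1 point a gene, with called genes filled and the dashed line at the median of all genes tested. The homeostatic genes tested lie to the right of the line and the macrophage and cell cycle genes tested mostly to its left, where the fitted values of Pf4, F13a1, Lyve1 and Ms4a7 are not bounds, since these genes were at or near 0 at E17.5.

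Levels of other kinds of RNA moved with stage too. Immediate early genes, which respond to dissociation, summed to between 3260 and 5385 CPM at E12.5 and between 568.0 and 19020 CPM at E17.5, and of 13 tested Junb (3.02) and Btg2 (2.05) were called. Neuronal and progenitor genes summed to a median of 342 CPM in the C1q+ cells at E12.5 and 1387 CPM at E17.5, and to between 5251 and 7421, and between 14710 and 17539 CPM, in the other barcodes. Stmn2, Tubb3 and Dcx of that list were called higher, and all 3 reached the level of the filter at E17.5 alone. Adult-type Hbb-bs was higher at E17.5 (3.89) and embryonic Hbb-y lower, each reaching the level of the filter only where it was high, and both were more abundant in the other barcodes than in the C1q+ cells. Without the 16 cells rich in neural RNA 335 genes were called from E12.5 to E17.5, with P2ry12 at 2.81, Sparc at 4.40 and Pf4 still lower. The part of the immediate early and haemoglobin genes in the results for other genes was not tested.

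Single steps gave few calls in libraries with at least 5 cells. With libraries of at least 1 cell allowed, the steps to and from E14.5 gave many more, as listed in the last section. From E12.5 to E14.5, with 2 WT libraries at E14.5, 13 genes were called (0.635%), among them Olfml3, an extracellular protein of microglia (2.58), Ctss (1.84) and P2ry12 (1.79) upward and Dab2 (-2.51) downward. Leaving out WT F1 of E14.5, which leaves a single library there, ended all 13 calls. From E14.5 to E16.0, 6 genes were called (0.293%), with Glul, glutamine synthetase, higher (1.43) and Mrc1 lower (-2.59). From E16.0 to E17.5, 16 were called (0.782%), including the ribosomal genes Rps29 (0.67) and Fau (0.62) upward, and Ctsh, a lysosomal protease (-1.03), and Ucp2, a mitochondrial carrier (-0.99), downward. Leaving out single libraries moved the last 2 counts to between 0 and 8 and between 2 and 36.

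Het and WT C1q+ cells did not differ in any called gene. At E12.5, E16.0 and E17.5 and over these 3 stages, 0 of 2046 genes passed (0%) in edgeR's quasi-likelihood test, while 92, 63, 103 and 96 genes lay below an unadjusted p of 0.05. By DESeq2 the calls were 0, 1, 0 and 0, the call being Mt2 at E16.0. With the pair as a block, edgeR called 3 genes at E16.0: Plac8, which few cells held in quantity (log2 fold change 6.52), Mt2 (3.86) and Selplg (-1.44). No het library of E14.5 held 5 C1q+ cells. With libraries of at least 1 cell allowed, 0 of 1536 genes passed at that stage (0%) and 117 had an unadjusted p under 0.05. With 2 to 4 libraries a group and few cells in each, small differences could not be detected.

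The lists showed no called gene either. Over stages, the median log2 fold change of het against WT was -0.02 for the 18 microglial markers, -0.21 for 15 homeostatic genes and -0.04 for 11 lineage factors, beside -0.01 for all genes tested. Macrophage genes had a median of 0.45 over 10 genes. The share of cells with cell cycle RNA differed by -0.905 points (permutation p = 0.940), and that with macrophage genes by -3.41 points (permutation p = 0.549). At E12.5 the macrophage-gene share was 70.4% of 27 WT cells (exact interval 49.8% to 86.2%) and 43.5% of 23 het cells (23.2% to 65.5%). Of these 23, 13 came from het F2, with 38.5%, while het F1 had 60.0% and the WT libraries with 5 or more cells had 60.0% to 75%. Without het F2 of E12.5 the difference over stages was 0.175 points.

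The genes closest to the threshold, picked after their values were seen, were these. Igfbp4, a binding protein of insulin-like growth factors, stood at 82.2, 143, 239 and 281 CPM in WT and 75.8, 94.4, 98.2 and 99.6 CPM in het at E16.0. At E17.5 it stood at 63.5, 84.4, 169 and 217 CPM in WT and 29.9, 40.3 and 53.2 CPM in het. The groups overlapped at E16.0 and not at E17.5, and the change averaged over stages was -1.31 on the log2 scale (SE 0.270, edgeR adjusted p = 0.0792). Selplg, a selectin ligand of microglia, was measured at -1.39 (SE 0.340, edgeR adjusted p = 0.315), Tmem119 at -0.80 (edgeR adjusted p = 0.846) and Igf1 at 1.20 (edgeR adjusted p = 0.927). Mt2, a metallothionein, stood at 0, 5.94, 18.1 and 20.5 CPM in WT and 33.2, 119, 142 and 333 CPM in het at E16.0, did not pass there (edgeR adjusted p = 0.0558), and was called at that stage in 11 of the alternative analyses. Over all libraries it stood at 59 CPM in C1q+ cells and at 85 CPM in the other barcodes, and the part of RNA from other cells in its values was not tested. In the alternatives Igfbp4 was called over stages in 5, and Selplg over stages in 2 and at E16.0 in 1, and Igf1 at E17.5 in 1.

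Chd8 itself was scarce in C1q+ cells. Summed over libraries, WT cells held 8, 2, 17 and 13 Chd8 UMIs from the earliest to the latest stage and het cells 3, 3, 4 and 2. As levels these were 23.3, 13.5, 34.4 and 38.6 CPM in WT and 11.7, 29.1, 10.7 and 11.1 CPM in het, lower in het at 3 of 4 stages. The mean difference was -11.8 CPM (permutation of genotype within stages, two-sided, p = 0.249, adjusted over 4 genes 0.498). In all other barcodes, where counts were ample, Chd8 at E12.5 stood at 41.3 ± 1.79 CPM in WT libraries and 30.2 ± 6.46 in het libraries, and at 54.8 ± 2.49 and 44.5 ± 4.35 at E16.0 (SD, n = 4 each), without overlap at these stages. At E14.5 and E17.5 the genotypes overlapped.

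Crlf2, which encodes a subunit of the receptor for thymic stromal lymphopoietin, was higher in het C1q+ cells. At E16.0 the WT libraries held 6, 1, 8 and 0 UMIs and the het libraries 7, 6, 3 and 12 (M1, M2, F1 and F2). In the same order these libraries held 20, 13, 25 and 8 C1q+ cells in WT and 17, 9, 9 and 13 in het, so that in F2, the pair with the widest gap, the het library held more cells. At E17.5 the counts were 1, 2, 3 and 3 in WT and 2, 10, 5 and 4 in het. Pooled levels from the earliest stage were 23.3, 33.7, 30.3 and 26.7 CPM in WT and 31.2, 87.4, 74.7 and 116 CPM in het, higher in het at 4 of 4 stages. The mean difference was 48.9 CPM (permutation of genotype within stages, two-sided, p = 0.00046, adjusted over 4 genes 0.00184), a test added after the data had been seen. The 4 genes were chosen with earlier results of these data known, and the adjustment does not cover that choice. Crlf2 was also higher in het in the other barcodes, at 6.14 ± 0.585 against 9.97 ± 0.540 CPM at E12.5 and 21.2 ± 2.84 against 31.6 ± 3.96 CPM at E17.5 (SD, n = 4 each), so the difference was not particular to these cells. Chd7, a related remodeller, and Zcwpw1, a histone reader, differed by 7.55 CPM (permutation p = 0.545) and 4.40 CPM (permutation p = 0.385).

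**Figure D5:**
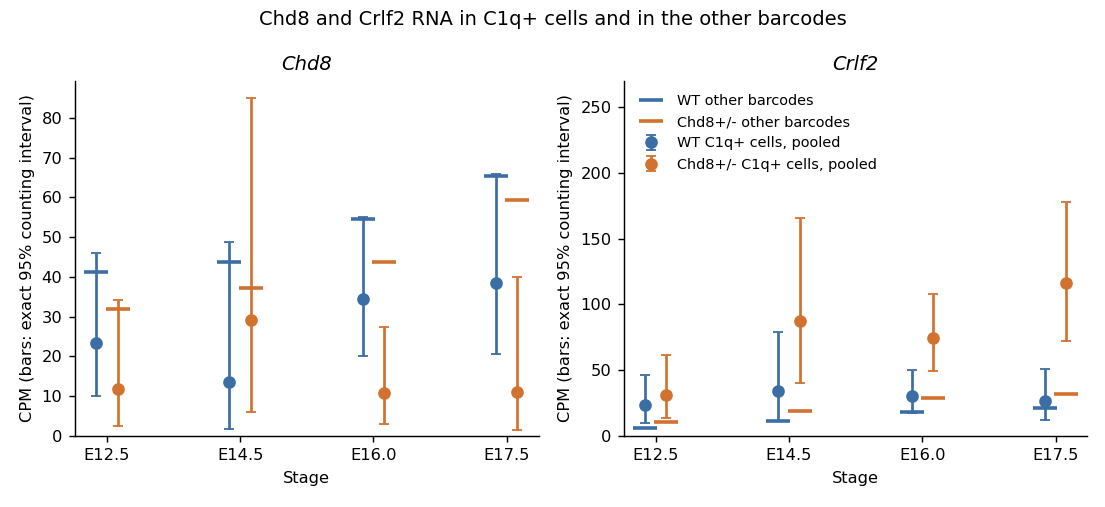
Chd8 and Crlf2 in the C1q+ cells of WT and Chd8+/- embryos, pooled over 4 libraries, by stage; bars are exact 95% counting intervals and dashes the other barcodes. Crlf2 lies higher in het at all 4 stages, but its intervals are apart at E17.5 alone and overlap at E12.5, E14.5 and E16.0. The intervals for Chd8 overlap at every stage.

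Some cells stood apart from the rest, and were picked out after their values were seen. The monocyte genes Plac8 and Ccr2 reached 5 UMIs together in 2 WT and 5 het cells. The 2 cells with the most, in het F2 of E16.0, had 92 and 78 such UMIs with 99 and 399 UMIs of Lyz2, and no P2ry12. Spp1, osteopontin, which marks microglia at developing axon tracts, reached 5 UMIs in 1 WT cell, with 100 UMIs, and in 7 het cells. Of these, 5 came from het M2 of E17.5, with 128, 69, 58, 31 and 9 UMIs. No comparison of genotypes is made from so few cells.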

How the data were processed

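Droplet 3′ single-cell RNA libraries were made with 10x Genomics v2 chemistry, per the labels' protocols. The authors deposited raw UMI counts per gene and barcode for each library, 32285 genes in all, and STAR 2.7.9a, STARsolo, Cell Ranger and mm10 are named in the submitters' processing notes. How cells were called and whether counting used strand is not given in the sources used here. Library totals ran from 14710694 to 66499864 UMIs, with 2449 to 7388 passing barcodes.

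C1q+ cells were taken by the stated rule, without clustering or a doublet caller. The cells, gene lists and tests were chosen with earlier results of these data known. Counts of the C1q+ cells were summed per library, libraries with at least 5 such cells were kept (22 of 32), and their sums ran from 26496 to 168345 UMIs. From E12.5 they comprised 3 WT and 2 het libraries, from E14.5 only 2 WT, from E16.0 all 8, and from E17.5 4 WT and 3 het libraries. The sexes were not balanced among them. At E14.5 both libraries were female (F1 and F2), as were both het libraries of E12.5, where WT M1 was the only male library. Gene tests that use E12.5 or E14.5 therefore also hold differences between the sexes. Since E14.5 het had none, no genotype test was fitted there, averages over stages use E12.5, E16.0 and E17.5, and steps to or from E14.5 compare WT libraries. Sums were tested with edgeR 4.0.16 in R 4.3.3 (TMM scaling, filterByExpr, robust quasi-likelihood), without the 5 rule genes, and with DESeq2 1.42.0 as an alternative. The scripts were tested on simulated data.

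Shares of barcodes and of cells were compared by permutation of libraries (exact, or 100000 draws when stratified over stages). Binomial and Poisson intervals are exact, at 95%, and cover counting error only. Named genes were called genes of at least 100 CPM in C1q+ cells and at least 2 times the level in the other barcodes, the 12 largest each way from E12.5 to E17.5 and 5 for other steps, besides up to 4 examples a list, Chd8, Chd7, Crlf2 and Zcwpw1; not all are printed, and some are not reported here. Positions are those of GENCODE M21 (GRCm38), in which 99.8% of the genes were found. Same-named WT and het libraries come from one litter and sex. In the other barcodes, deviations from the group means correlated positively within all 16 such pairs (r 0.154 to 0.878). For M1 and F1 of E12.5 and M2 of E16.0, the WT library correlated more closely with a het library of another name. P-values measure the spread between embryos. Litters are nested in stages, so a stage difference also holds differences between litters and library runs. The stage tests counted WT and het littermates as separate embryos.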

Additional observations from a re-analysis of the deposited data

Results flagged for a closer look

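In 95 groups of 4 libraries checked for a single library far from the rest, 5 were found, or 5.26%, where chance gives about 5%. The share of C1q+ cells at E12.5 in WT was 0.208% in F2, above the other 3 libraries. C1qc stood at 5571 CPM in WT M2 of E16.0. Eif4ebp1, which encodes a translation repressor, stood at 119 CPM in WT F1 of E16.0. Siglech stood at 456 CPM in het M1 of E16.0, and Snx2, a sorting nexin, at 422 CPM in WT F1 of E17.5.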

How the results depend on the processing

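Small counts limit every result here: a library held 1 to 25 C1q+ cells, and the alternatives mostly changed how many genes were called rather than their direction. Of single named genes compared over the other settings, 274 values kept direction and call, 68 lost the call and 6 reversed. The cause was not tested where no construction shows it. From E12.5 to E17.5 the 458 calls became 101 with at least 10 cells a library, 222 with WT libraries only, 30 after thinning, and, without the macrophage-gene-rich cells, 20 (144 when 1 cell a library sufficed), settings that leave fewer samples, cells or counts. Homeostatic genes called higher (14) became 10 without those cells when 1 cell a library sufficed, and 4 after thinning. Microglial markers called higher (13) became 4 after thinning. Macrophage genes called lower (8, most of them tested through E12.5 alone) became 4 with 10 cells a library, 2 after thinning and 0 and 0 in the 2 settings without those cells. With 5 cells a library the setting without them sets 1 het library of E12.5 against het libraries of E17.5, so nothing is read from its values, which for Dab2, Ifi27l2a and Ccl7 were 0.45, 0.32 and 0.15. With 1 cell Ccl7, Hmox1 and Igfbp4 reversed to 1.05, 0.57 and 0.19.

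From E12.5 to E14.5 (13) the calls were 21 with DESeq2, 23 without a filter on low counts, 7 without cells rich in neural RNA, 5 after thinning, 20 with WT only, 76 with 1 cell a library and 24 in that setting without the macrophage-gene-rich cells. From E14.5 to E16.0 (6) they were, in the same order, 19, 11, 1, 0, 2, 130 and 91, and 0 and 0 without the macrophage-gene-rich cells and under the stricter rule. From E16.0 to E17.5 (16) they were 49 with DESeq2, 37 without a filter, 0 with 10 cells a library, 3 under the stricter rule and 0 with WT only.

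Het against WT gave 2 calls at E12.5 with 1 cell a library; 1 with DESeq2, 6 without a filter, 1 under the stricter rule and 3 with the pair as a block at E16.0; 7 with 10 cells a library at E17.5, where het keeps 1 library; and over stages 2 without a filter and 1 with 1 cell a library. The block changed no other call. The share difference over stages was -0.0561 under the stricter rule and -0.0606 after thinning, neither past the threshold, and with the pair as a block -0.0717 (permutation p = 0.0231). Without the macrophage-gene-rich cells the share difference at E12.5 was 0.0127 (exact permutation p = 0.8), and the steps from E12.5 to E14.5 and from E16.0 to E17.5 were 0.0276 and 0.0150 points. The cycling share differed by 4.45 points between genotypes without cells rich in neural RNA.

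Leaving out 1 library at a time gave 229 to 466 calls from E12.5 to E17.5, 0 to 16 from E12.5 to E14.5, 0 to 8 from E14.5 to E16.0 and 2 to 36 from E16.0 to E17.5. Between genotypes it gave 0 at E12.5, 0 to 1 at E16.0, 0 to 9 at E17.5 and 0 to 1 over stages. Homeostatic calls ran from 11 to 14, macrophage calls from 6 to 8 and marker calls from 11 to 14. Share differences between genotypes ran from -0.0537 to 0.00914 at E12.5, -0.0586 to -0.00376 at E14.5, -0.157 to -0.0821 at E16.0, -0.171 to -0.0472 at E17.5 and -0.0842 to -0.0532 over stages. The last step of the share ran from -0.0447 to 0.0162, the cycling difference from -4.61 to 5.11 and the macrophage-gene difference from -7.00 to 0.175.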
